A study of Mus musculus with 4 samples.

Results

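The 9 genes described here encode proteins of central nervous system myelin and are markers of mature oligodendrocytes: *Mbp*, *Mobp*, *Cnp*, *Cldn11*, *Mal*, *Mag*, *Mog*, *Opalin* and *Ermn*. They were taken by name from the 33981 genes of the count tables, and all 9 were found once each and passed the filter on low counts in every comparison. Bulk RNA sequencing of poly(A) RNA was used to ask how angiotensin II hypertension and photothrombotic stroke, alone or together, changed expression in a slab of forebrain cut in the coronal plane at the level of the prefrontal cortex. The 4 groups held 6 libraries each, 24 in all, and a library was taken as 1 mouse. All mice were male C57BL/6J animals aged 3 to 5 months, and all carried a subcutaneous pump for 28 days. NT + Sham and NT + Stroke mice received saline, while HT + Sham and HT + Stroke mice received 0.28 mg/kg/day of angiotensin II. Surgery followed on day 7, with a light-induced clot over the prefrontal cortex in stroke mice and the same procedure without illumination in sham mice, and brains were collected on day 28. Angiotensin II infusion models hypertension with a raised renin-angiotensin drive, and photothrombosis places a small infarct in cortex, so neither model represents all hypertension or all stroke. The sources used here do not say whether any library was made from pooled mice.

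Oligodendrocytes wrap axons in many layers of membrane, and myelin genes are switched on together as precursor cells mature, under transcription factors such as OLIG2, SOX10 and MYRF. White matter tracts such as the corpus callosum and the fibre bundles of the striatum hold far more myelin than the upper cortex, so myelin RNA in a tissue block depends on which regions the block contains. After focal injury, oligodendrocytes can be lost in the lesion and new ones can form around it. In bulk tissue, fewer cells of a type and less RNA per cell cannot be told apart.

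The RefSeq promoter table for GRCm38.p6 matched 8 of the 9 genes, and *Mbp* had no entry. The 250 bases before the transcription start of *Mog*, *Mobp*, *Cnp* and *Cldn11* are shown because these genes rose after stroke in at least 1 comparison and because their upstream sequences differ in the motifs they hold. Capitals mark ACAAAG or its reverse complement CTTTGT, a core of SOX family sites. They also mark CTGGNAC or its reverse complement GTNCCAG, searched here as a loose form of the MYRF core with any base at N. Binding of MYRF at these matches was not tested.
Mog (chr17:37023399-37023648, minus strand): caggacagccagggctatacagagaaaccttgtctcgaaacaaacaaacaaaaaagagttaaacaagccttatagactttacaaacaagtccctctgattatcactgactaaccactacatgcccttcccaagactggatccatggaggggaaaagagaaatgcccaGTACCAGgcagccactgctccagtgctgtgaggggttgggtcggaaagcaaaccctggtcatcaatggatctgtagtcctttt
Mobp (chr9:120149492-120149741, plus strand): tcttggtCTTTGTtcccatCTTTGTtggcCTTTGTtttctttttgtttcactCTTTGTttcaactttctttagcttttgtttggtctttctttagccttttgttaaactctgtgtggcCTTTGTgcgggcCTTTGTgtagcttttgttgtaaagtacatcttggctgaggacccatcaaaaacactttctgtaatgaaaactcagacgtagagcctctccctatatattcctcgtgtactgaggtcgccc
Cnp (chr11:100574689-100574938, plus strand): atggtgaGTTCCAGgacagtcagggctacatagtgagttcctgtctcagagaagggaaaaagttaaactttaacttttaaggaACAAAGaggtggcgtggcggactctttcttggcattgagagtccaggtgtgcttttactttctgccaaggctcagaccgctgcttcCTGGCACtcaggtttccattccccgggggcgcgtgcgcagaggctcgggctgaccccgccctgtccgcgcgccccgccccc
Cldn11 (chr3:31149670-31149919, plus strand): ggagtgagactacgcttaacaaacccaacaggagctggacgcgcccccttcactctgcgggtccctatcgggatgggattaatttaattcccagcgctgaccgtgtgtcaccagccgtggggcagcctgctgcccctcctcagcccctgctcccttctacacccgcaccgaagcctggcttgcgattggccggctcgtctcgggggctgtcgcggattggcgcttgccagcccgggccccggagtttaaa

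The ACAAAG motif, searched on both strands, occurred 6 times upstream of *Mobp*, once each upstream of *Cnp* and *Opalin*, and upstream of the more distal start sites of *Mag*. It was found in 4 of the 8 genes with a sequence and in 16.5% of the 32851 promoters of the table. For each motif a gene was counted when any of its listed start sites held it, and *Mag* had 3 start sites. The shares of the table are per promoter, so the counts of genes are not on the same measure. CTGGNAC occurred upstream of 3 of the 8 genes, namely *Mog*, *Mag* and *Cnp*, and in 16.1% of all promoters. The E-box CAGCTG, a form bound by basic helix-loop-helix factors, occurred upstream of 0 of the 8 genes and in 13% of all promoters. *Cldn11*, *Ermn* and *Mal* held none of the 3 motifs in this window, which says nothing about binding elsewhere.

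The total count per library was 15922919 to 24865998. In all, 3 libraries stood apart from their groups, and they were recognised after the data were seen, from lists that hold none of the 9 genes. Mouse 6 of HT + Sham had a summed level of 6 meningeal fibroblast genes of 219 CPM (counts scaled to a common library size), while the other mice of that group had 58.7 to 111. Mice 1 and 6 of HT + Stroke had 88.8 and 88.6 CPM, near the sham mice, while the other mice of that group had 179 to 869. The same 3 libraries had 422, 360 and 339 CPM over 8 microglia and macrophage genes, between the other sham mice (277 to 327) and the other stroke mice (454 to 873). For the 9 myelin genes these libraries lay with their own groups. The summed CPM of the 9 genes was 3245 in mouse 6 of HT + Sham, the lowest of its group, and 5032 and 4976 in mice 1 and 6 of HT + Stroke, both above that group's median of 4972. The summed level of 8 striatal genes was 350 CPM in mouse 6 of HT + Sham, the lowest of its group. It was 2335 and 2296 CPM in mice 1 and 6 of HT + Stroke, where the group ran from 868 to 2744 CPM. For 8 olfactory bulb genes the 3 libraries had 1016, 154 and 212 CPM. Whether their myelin gene levels follow the regions in the block was not tested. Because these 3 libraries stood apart, results that use the hypertensive groups are given with and without them.

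Levels between genes were compared in FPKM, which divides the counts of a gene by its length and by library size. Over all 24 libraries, the mean level was 309 FPKM for *Mbp* (57.4 SD), which ranked 115 among the 33981 genes. *Cnp* (105 ± 21.8 FPKM) and *Mobp* (100.1 ± 17.3 FPKM) followed, then *Cldn11* (77.4 ± 17.2), *Mal* (51.3 ± 8.44), *Mag* (46.7 ± 9.28), *Mog* (37.7 ± 7.12), *Opalin* (14.0 ± 4.79) and *Ermn* (7.87 ± 1.07), each as mean ± SD in FPKM. *Mbp* lay above *Cnp* in 24 of 24 libraries without any overlap of their ranges. *Cnp* exceeded *Mobp* in 15 of 24 libraries, and *Mal* exceeded *Mag* in 16 of 24, so the order within these neighbouring pairs did not hold across mice. The other neighbours kept their order within every library. The largest coefficient of variation within a group was that of *Opalin* in HT + Sham, at 46.8%.

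**Figure D1:**
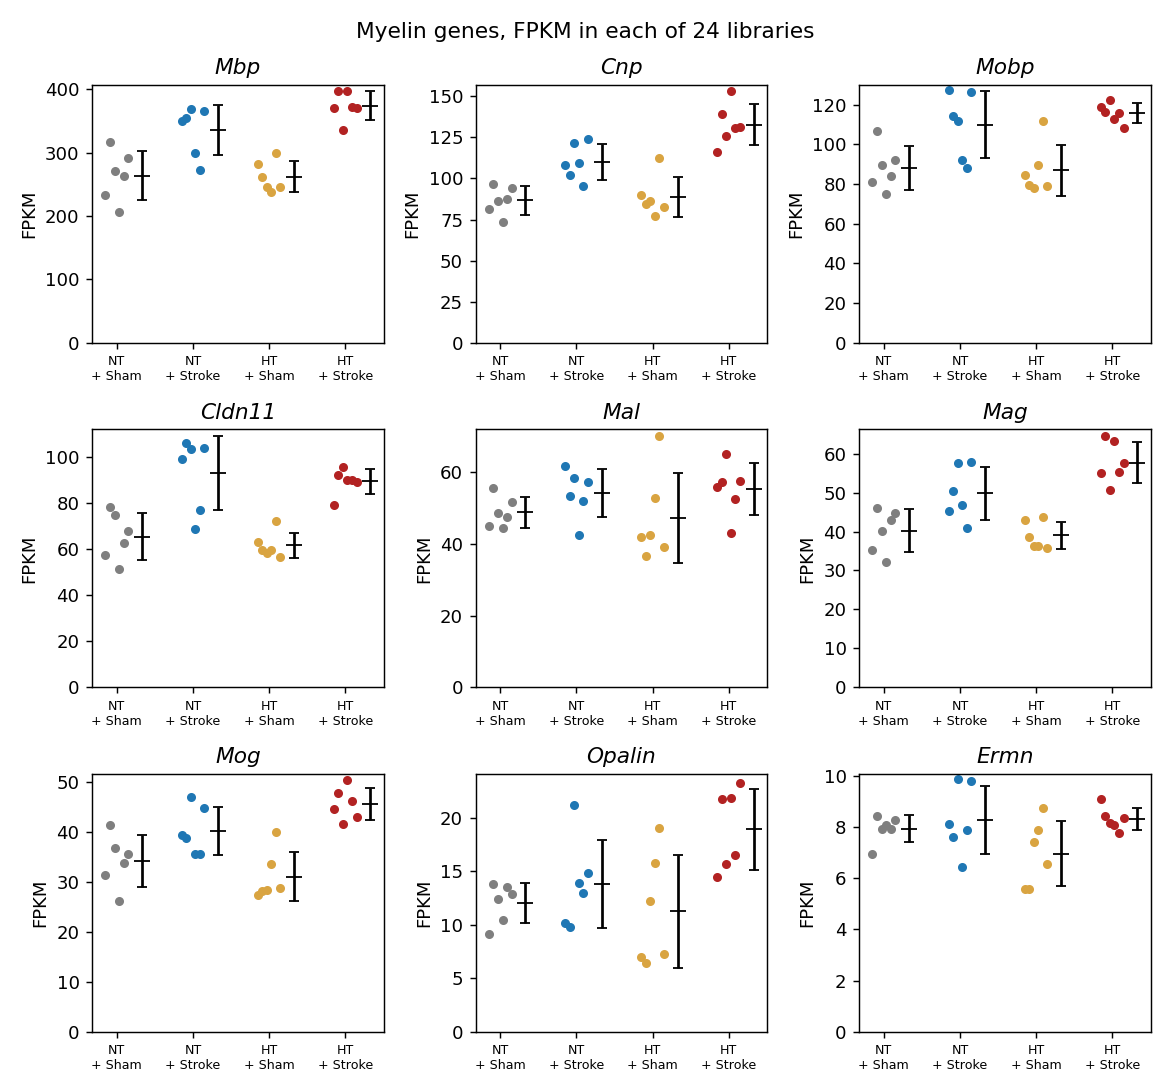
FPKM of the 9 myelin genes (vertical axes, each from 0) in each of the 24 libraries (points, 6 per group, mice 1 to 6 from left to right), with the group mean and SD beside them. In *Mbp*, *Cnp*, *Mag*, *Mog* and *Cldn11* the HT + Stroke points lie above all HT + Sham points, and in *Mal* the groups overlap.

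Stroke was compared with sham surgery first in saline-treated mice. Of the 9 myelin genes, 4 were upregulated in NT + Stroke vs NT + Sham and 0 were downregulated, with an adjusted *P* under 0.05 in edgeR's quasi-likelihood test over 16835 genes. The 4 genes were *Cldn11*, *Cnp*, *Mbp* and *Mobp*, and their increases were 1.21-fold to 1.38-fold. In the same comparison 14.4% of all genes tested were higher and 11.5% lower. The median log2 fold change was 0.26 over the myelin genes and −0.01 over all genes, and all 9 estimates were positive. The groups overlapped for each of the 9 genes on the scaled CPM scale, where 7.47% of all genes were higher without overlap.

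The same contrast in angiotensin II-infused mice, HT + Stroke vs HT + Sham, gave 5 upregulated myelin genes and 0 downregulated over 16741 genes tested. *Cldn11*, *Mag*, *Cnp*, *Mbp* and *Mog* rose 1.40-fold to 1.47-fold. Here 0.544% of all genes were higher and 0.102% lower, 91 and 17 genes. The median log2 fold change was 0.51 over the 9 genes and 0.00069 over all genes. In *Cldn11*, *Mag*, *Cnp* and *Mbp*, all 6 HT + Stroke mice had a higher scaled CPM than all 6 HT + Sham mice, as did 0.591% of all genes. Without the 3 libraries that stood apart, 1437 genes were called in place of 108 and the same 5 myelin genes were called, against 6.81% of all genes called higher, with log2 fold changes over the 9 genes of 0.11 to 0.60.

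**Figure D2:**
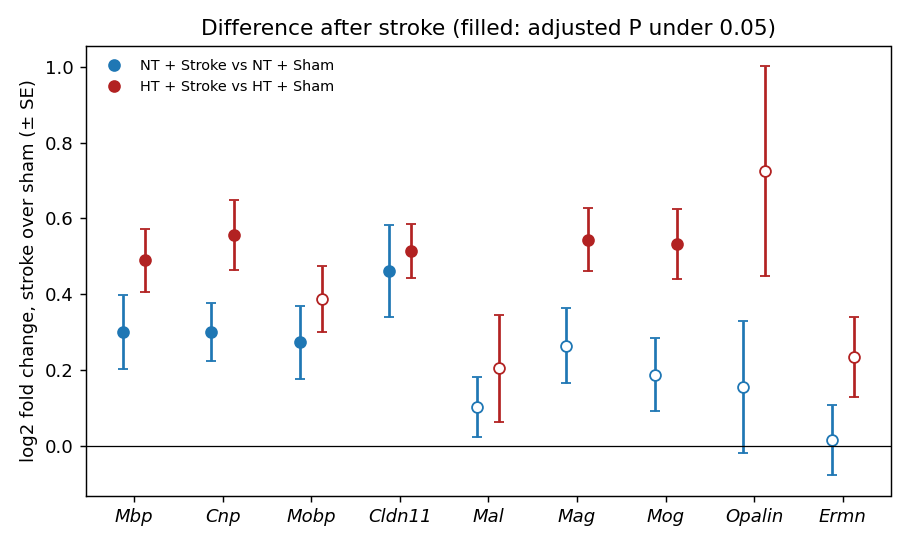
Log2 fold change of each myelin gene after stroke (points, bars ± SE) in normotensive mice (blue) and in hypertensive mice (red), with filled points for an adjusted *P* under 0.05. Values lie between 0.01 for *Ermn* in normotensive mice and 0.72 for *Opalin* in hypertensive mice, and 0 is marked by a line.

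*Mbp* (ENSMUSG00000041607, chromosome 18, 82475146 to 82585637 on GRCm38) encodes myelin basic protein, which holds the cytoplasmic faces of the sheath together. It was 207 to 316 FPKM (median 268) in NT + Sham mice and 273 to 370 FPKM (median 352) in NT + Stroke mice. In HT + Sham mice it was 238 to 299 FPKM (median 254) and in HT + Stroke mice 335 to 397 FPKM (median 372). Mice 4 and 5 of NT + Stroke lay within the sham range, and the other 4 lay above it, while the hypertensive groups were separate. The log2 fold change was 0.30 (SE 0.097, adjusted *P* = 0.0295) in normotensive mice and 0.49 (SE 0.083, adjusted *P* = 0.0163) in hypertensive mice.

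*Mobp* (ENSMUSG00000032517, chromosome 9, 120149707 to 120181484) encodes a smaller basic protein of compact myelin. Its level was 74.7 to 106 FPKM (median 86.8) in NT + Sham and 87.8 to 127 FPKM (median 113) in NT + Stroke. It was 77.9 to 112 FPKM (median 82.0) in HT + Sham and 108 to 122 FPKM (median 116) in HT + Stroke. Mouse 5 of HT + Sham, at 112 FPKM, lay above 1 HT + Stroke mouse, and the other 5 HT + Sham mice lay below all of them. The log2 fold change of *Mobp* was 0.27 in normotensive mice (SE 0.097, adjusted *P* = 0.0469). It was 0.39 in hypertensive mice, which did not pass the threshold (SE 0.088, adjusted *P* = 0.0532).

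*Cnp* (ENSMUSG00000006782, chromosome 11, 100574904 to 100591729) encodes a cyclic nucleotide phosphodiesterase that helps keep channels of cytoplasm open in the sheath. It had 73.2 to 96.9 FPKM (median 87.1) in NT + Sham and 95.5 to 124 FPKM (median 109) in NT + Stroke, where 5 of 6 stroke mice lay above every sham mouse. It had 77.2 to 112 FPKM (median 85.6) in HT + Sham and 116 to 153 FPKM (median 131) in HT + Stroke, with no overlap. The log2 fold change was 0.30 (SE 0.076, adjusted *P* = 0.00673) and 0.56 (SE 0.092, adjusted *P* = 0.0156) in the respective comparisons.

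*Cldn11* (ENSMUSG00000037625, chromosome 3, 31149920 to 31164324) encodes the claudin that forms tight junctions between myelin layers. In NT + Sham mice it was 51.3 to 78.5 FPKM (median 65.2) and in NT + Stroke mice 68.9 to 106 FPKM (median 101). Mice 4 and 5 of NT + Stroke were again the lowest of their group, at 68.9 and 76.8 FPKM. In HT + Sham mice it was 56.7 to 72.1 FPKM (median 59.6) and in HT + Stroke mice 79.4 to 95.5 FPKM (median 90.0). *Cldn11* had the smallest adjusted *P* of the 9 genes in hypertensive mice, with a log2 fold change of 0.51 (SE 0.070, adjusted *P* = 0.00924), and the largest fold in normotensive mice, with 0.46 (SE 0.123, adjusted *P* = 0.0119). *Mal* (ENSMUSG00000027375, chromosome 2, 127633226 to 127656695) encodes a membrane proteolipid that sorts proteins and lipids into myelin. It was 44.3 to 55.5 FPKM (median 48.0) in NT + Sham and 42.3 to 61.6 FPKM (median 55.3) in NT + Stroke. It was 36.6 to 70.1 FPKM (median 42.2) in HT + Sham, where mouse 5 had the highest value of all 24 libraries, and 42.9 to 65.0 FPKM (median 56.5) in HT + Stroke. Stroke and sham mice overlapped in both comparisons, and the log2 fold changes of 0.10 (2 SE interval −0.05 to 0.26) and 0.20 (−0.08 to 0.49) did not pass the test.

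The proteins of the sheath surface were *Mag* and *Mog*. *Mag* (ENSMUSG00000036634, chromosome 7, 30899176 to 30914873) encodes a sialic acid-binding adhesion protein on the innermost layer, facing the axon. It was 32.1 to 46.0 FPKM (median 41.5) in NT + Sham and 41.0 to 57.8 FPKM (median 48.7) in NT + Stroke. It was 35.8 to 43.7 FPKM (median 37.5) in HT + Sham and 50.6 to 64.6 FPKM (median 56.5) in HT + Stroke, with no overlap. The log2 fold change of *Mag* was 0.26 in normotensive mice, just outside the threshold (SE 0.099, adjusted *P* = 0.0585), and 0.54 in hypertensive mice (SE 0.083, adjusted *P* = 0.0115). *Mog* (ENSMUSG00000076439, chromosome 17, 37010743 to 37023398) encodes an immunoglobulin-like protein of the outermost layer and is a classical autoantigen in experimental demyelination. It was 26.1 to 41.3 FPKM (median 34.7) in NT + Sham and 35.5 to 47.0 FPKM (median 39.1) in NT + Stroke, with 2 of 6 stroke mice above every sham mouse. It was 27.5 to 40.0 FPKM (median 28.5) in HT + Sham and 41.6 to 50.4 FPKM (median 45.3) in HT + Stroke. All 6 HT + Stroke mice lay above every HT + Sham mouse in FPKM, and 5 of 6 did so in scaled CPM. The log2 fold change was 0.19 in normotensive mice (SE 0.097, adjusted *P* = 0.175) and 0.53 in hypertensive mice (SE 0.092, adjusted *P* = 0.018).

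*Opalin* (ENSMUSG00000050121, chromosome 19, 41062474 to 41077113), a transmembrane glycoprotein gene of oligodendrocytes, was 9.16 to 13.8 FPKM (median 12.7) in NT + Sham and 9.76 to 21.2 FPKM (median 13.5) in NT + Stroke. In HT + Sham mice it was 6.41 to 19.0 FPKM (median 9.76), with mice 1, 2 and 6 at 6.99, 6.41 and 7.25 FPKM and mice 3, 4 and 5 at 12.3, 15.8 and 19.0 FPKM. In HT + Stroke mice it was 14.5 to 23.2 FPKM (median 19.2). Its log2 fold change in hypertensive mice was the largest of the 9 genes at 0.72, but with an SE of 0.277 it did not pass (adjusted *P* = 0.212), nor did the 0.15 of normotensive mice (SE 0.174, adjusted *P* = 0.575). *Ermn* (ENSMUSG00000026830, chromosome 2, 58045113 to 58052864), which encodes an actin-binding cytoskeletal protein of late oligodendrocytes, was the least abundant gene. It was 6.95 to 8.43 FPKM (median 8.0) in NT + Sham, 6.45 to 9.85 FPKM (median 7.98) in NT + Stroke, 5.58 to 8.75 FPKM (median 6.98) in HT + Sham and 7.77 to 9.07 FPKM (median 8.25) in HT + Stroke. The groups overlapped in both comparisons of *Ermn*, with log2 fold changes of 0.01 (SE 0.092, adjusted *P* = 0.931) and 0.23 (SE 0.106, adjusted *P* = 0.275).

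The calls depended on single libraries. The count of myelin genes called in normotensive mice was 2 to 5 with each library left out in turn. Over the same fits 3530 to 4210 of all genes were called in either direction. The myelin count was 2 without mouse 1 of NT + Sham or without mouse 2, 3 or 6 of NT + Stroke. In hypertensive mice the myelin count was 1 to 6, while all genes called in either direction numbered 9 to 533. The myelin count was 1 without mouse 3 of HT + Sham or mouse 2 of HT + Stroke. It was 2 without mouse 1 or mouse 4 of HT + Sham, and 3 without mouse 4 of HT + Stroke. The direction of the change after stroke held in every one of these fits for *Mbp*, *Mobp*, *Cnp*, *Cldn11*, *Mal*, *Mag* and *Mog*, whereas *Ermn* and *Opalin* changed sign in normotensive mice, at most to −0.04 and −0.01.

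Averaged over normotensive and hypertensive mice in one fit of all 24 libraries, 6 of the 9 genes were upregulated after stroke and 0 downregulated, against 14.2% and 11.6% of the 17608 genes tested. Log2 fold changes were 0.48 for *Cldn11* (adjusted *P* = 3.59e-05), 0.42 for *Cnp* (adjusted *P* = 3.05e-05), 0.40 for *Mag* (adjusted *P* = 9.13e-05), 0.39 for *Mbp* (adjusted *P* = 8.77e-05), 0.35 for *Mog* (adjusted *P* = 0.000541) and 0.32 for *Mobp* (adjusted *P* = 0.000833). *Opalin* had an estimate of 0.43 with a wider error (SE 0.173, adjusted *P* = 0.0731). *Mal* at 0.14 (SE 0.086) and *Ermn* at 0.12 (SE 0.073) did not pass, with adjusted *P* of 0.239 and 0.27. The median over the 9 genes was 0.39 and over all genes −0.01. With each library left out in turn, 6 to 8 of the 9 were called. Over these fits 4048 to 4867 of all genes were called in either direction. Without the 3 libraries that stood apart 6 of the 9 were called, against 16.5% of all genes called higher.

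Whether the stroke difference itself depended on hypertension was tested as an interaction. Of the 9 genes, 0 passed an adjusted *P* under 0.05 in edgeR, as did 0% of 17608 genes, and DESeq2 called 0 of the 9 and 22 of all genes. All 9 estimates were positive, from 0.05 for *Cldn11* to 0.56 for *Opalin*, with a median of 0.21. *Mog* alone had an unadjusted *P* under 0.05, with an interaction of 0.34 on the log2 scale (2 SE interval 0.05 to 0.62, adjusted *P* = 0.428), and 4.54% of all genes had such a *P* with a positive estimate. Without the 3 libraries that stood apart, 0 of the 9 passed in edgeR, 0 had an unadjusted *P* under 0.05, against 1.52% of all genes with a positive estimate, and the estimates were 0.01 to 0.45 with a median of 0.16. With all libraries, the interaction was 0.27 for *Mag* (2 SE interval 0.01 to 0.54), 0.25 for *Cnp* (0.00 to 0.49) and 0.18 for *Mbp* (−0.08 to 0.44). The larger number of myelin genes called in hypertensive mice was thus not shown to be a difference between the comparisons. The sign of the interaction of *Cldn11* turned with library size scaling alone and with a striatal score as covariate, and those of *Cldn11*, *Mal* and *Mobp* turned with an olfactory bulb score as covariate.

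Angiotensin II was compared with saline within each surgery. In HT + Sham vs NT + Sham, edgeR called 0 of the 9 genes and 0% of 16581 genes, DESeq2 called 0 of the 9, and 0 of the 9 had an unadjusted *P* under 0.05, against 8.03% of all genes. Without mouse 6 of HT + Sham, 0 of the 9 passed and 0 had an unadjusted *P* under 0.05, with estimates of −0.19 to 0.04. In that fit 775 of 16667 genes had such a *P* in either direction, and 2.83% of all genes had it with a higher estimate. With all libraries, estimates ranged from −0.21 for *Ermn* (SE 0.101, adjusted *P* = 0.631) to 0.02 for *Cnp* (SE 0.090, adjusted *P* = 0.99), with a median of −0.07. The 2 SE interval of *Cnp* was −0.16 to 0.19 and that of *Mbp* −0.22 to 0.16.

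In HT + Stroke vs NT + Stroke, 0 of the 9 genes and 0% of 17008 genes had an adjusted *P* under 0.05 in edgeR, and DESeq2 also called 0 of the 9. An unadjusted *P* under 0.05 was reached by 4 genes, all with higher estimates in HT + Stroke, against 3.35% of all genes. These were *Opalin* at 0.44 (SE 0.191), *Cnp* at 0.26 (SE 0.082), *Mag* at 0.20 (SE 0.095) and *Mog* at 0.17 (SE 0.080), each with an adjusted *P* of 0.654. Without mice 1 and 6 of HT + Stroke, 0 of the 9 passed and 1 had an unadjusted *P* under 0.05, against 1.90% of all genes higher, with estimates of −0.05 to 0.43. With all libraries *Cldn11* had the lowest estimate, −0.07 (SE 0.099). Averaged over both surgeries, the angiotensin II difference passed for 0 of the 9 genes and 0% of 17608 genes in edgeR, for 0 of the 9 in DESeq2, and 1 of the 9, *Cnp*, had an unadjusted *P* under 0.05, against 2.08% of all genes higher. Without the 3 libraries that stood apart these were 0 and 1 of the 9, against 2.60% of all genes higher at an unadjusted *P* under 0.05, with estimates of −0.12 to 0.21. The averaged estimates over all libraries ran from −0.10 for *Ermn* to 0.17 for *Opalin*, with 0.14 for *Cnp* (SE 0.061, adjusted *P* = 0.9).

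Myelin genes varied together between mice of the same group. Over the 24 libraries, after each group's mean was removed, Pearson's r of log2(CPM + 1) was positive in all 36 pairs of the 9 genes, from 0.30 to 0.92 with a median of 0.63, and Spearman's rho was 0.26 to 0.89 with a median of 0.64. By a permutation test within groups, 27 of 36 pairs had an adjusted p under 0.05 for r and 27 for rho. The closest pair was *Mbp* and *Mag* (r = 0.92, rho = 0.89, permutation p adjusted over 36 pairs 9e-05 for each, from the smallest p that the permutations can give), and r was 0.87 without the 2 libraries farthest from the median of *Mbp*. *Mag* and *Cnp* (r = 0.84), *Mobp* and *Cldn11* (r = 0.84) and *Mbp* and *Cldn11* (r = 0.83) followed. *Opalin* was closest to *Ermn* (r = 0.73) and to *Mog* (r = 0.68), and had r = 0.31 with both *Mbp* and *Cldn11*. *Ermn* and *Mal* had r = 0.74. The weakest pair was *Mag* and *Mal* (r = 0.30). With the 2 farthest libraries left out, r ranged from 0.04, for *Cnp* and *Mal*, to 0.87, with a median of 0.54. The libraries share tissue composition and scaling, so these values describe the mice and not a link between the genes.

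**Figure D3:**
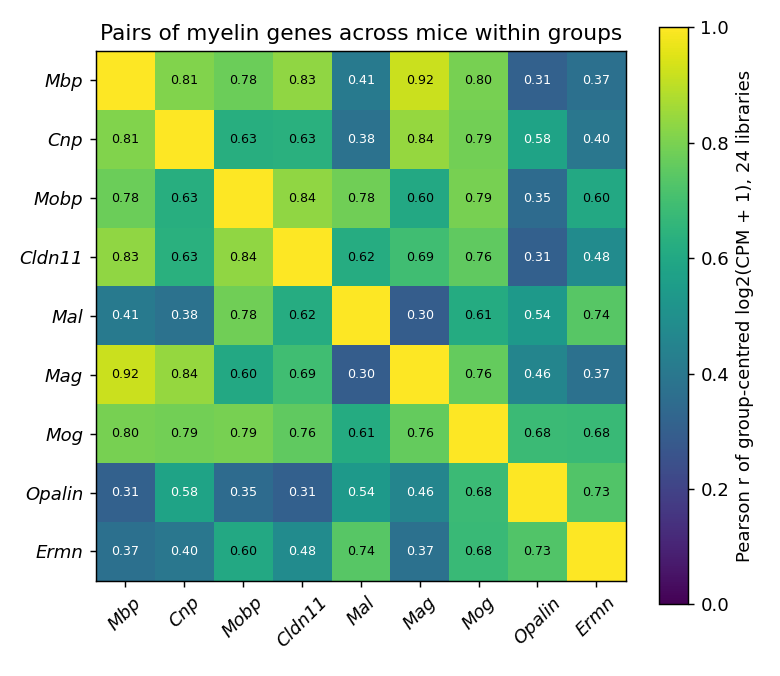
Pearson's r for each of the 36 pairs of myelin genes (colour and printed value) over 24 libraries after the mean of each group was removed from log2(CPM + 1). Values run from 0.30 for *Mag* and *Mal* to 0.92 for *Mbp* and *Mag*.

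Genes among the 10 whose pattern was most like the mean of the 9, by Pearson's r over the same 24 group-centred libraries and among 15368 other genes, were *Prr18* (r = 0.90), *Bcas1* (0.83), *Tnni1* (0.82), *Tmem88b* (0.81), *Dbndd2* (0.80), *Gm12992* (0.77), *Evi2a* (0.76), *Dach1* (0.75) and *Cd4* (0.73). *Bcas1* marks oligodendrocytes that are beginning to myelinate. The mean level of *Gm12992* and *Dach1* was under 1 FPKM.

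Other genes of the oligodendrocyte line were examined as lists. Of 25 other myelin and mature oligodendrocyte genes tested, 16 were upregulated and 1 downregulated in the averaged stroke contrast, with a median log2 fold change of 0.25. In normotensive mice 6 rose and 1 fell (median 0.17), and in hypertensive mice 6 rose and 0 fell (median 0.35). In normotensive mice those with the smallest *P* were *Apod*, an apolipoprotein gene (log2 fold change 1.49), *Gsn*, an actin-severing protein gene (0.74), *Aspa*, which breaks down N-acetylaspartate (0.49), and *Ndrg1* (0.31). *Apod* and *Gsn* are also expressed by meningeal fibroblasts. In hypertensive mice they were *Tmem125* (0.76), *Trf*, the transferrin gene (0.80), *Fa2h*, which hydroxylates myelin lipids (0.50), and *Ndrg1* (0.35).

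The shares of all genes called higher were 14.4%, 0.544% and 14.2% in normotensive mice, hypertensive mice and the averaged contrast. Those called lower were 11.5%, 0.102% and 11.6%. Of 12 oligodendrocyte transcription factor genes, 5 rose and 1 fell in normotensive mice, 2 rose and 0 fell in hypertensive mice, and 7 rose and 1 fell in the averaged contrast (median 0.26). *Myrf*, which drives the myelin programme, rose in both, by 0.26 (adjusted *P* = 0.0204) and 0.54 (adjusted *P* = 0.018) on the log2 scale. *Nkx6-2* rose in hypertensive mice (0.55, adjusted *P* = 0.0473). In normotensive mice *Olig2* (0.22, adjusted *P* = 0.0105) and *Tcf7l2* (0.48, adjusted *P* = 0.0106) rose and *Zfp365* fell (−0.47), a gene that neurons also express. Of 12 precursor and differentiating genes, 4 rose and 0 fell in normotensive mice, 1 rose and 0 fell in hypertensive mice, and 3 rose and 1 fell in the averaged contrast, with a median of 0.03. Those that rose in the averaged contrast were *Enpp6* (0.61), *Bcas1* (0.41) and *Itpr2* (0.25), markers of newly forming oligodendrocytes, and *Tnr* fell (−0.28). *Pdgfra*, the receptor that defines precursor cells, had an estimate of 0.02 (adjusted *P* = 0.836).

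On the axonal side, 10 genes of the node and paranode had 5 members that fell in normotensive mice, 0 called in hypertensive mice (1 at an unadjusted *P* under 0.05) and 3 that fell in the averaged contrast, with a median of −0.11. Of all genes, 11.5%, 0.102% and 11.6% were called lower in the respective comparisons. *Scn8a*, the nodal sodium channel, fell by 0.37 on the log2 scale in normotensive mice, and *Cntn1*, a paranodal adhesion gene, fell by 0.32. Peripheral myelin was checked with 7 Schwann cell genes, whose summed level was 77.4 to 116 CPM per library. *Pmp22* rose in normotensive mice (log2 fold change 0.65). *Prx* and *Ncmap* had at most 46 and 15 counts in any library. The part of peripheral myelin in the results of the 9 genes was not tested.

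Markers of regions and other cells moved with stroke as well. The summed level of 8 striatal genes was 369 to 1692 CPM (median 981) in NT + Sham, 478 to 2197 CPM (median 1634) in NT + Stroke, 350 to 1107 CPM (median 799) in HT + Sham and 868 to 2744 CPM (median 1986) in HT + Stroke. Of the 8 striatal genes, 7 passed as higher in the averaged stroke contrast (median 0.98), and 0 passed in each group's own comparison, where 0 of 8 had an unadjusted *P* under 0.05 in normotensive and 8 of 8 in hypertensive mice. Of 8 cortical genes, 7 fell in the averaged contrast (median −0.35), and of 8 neuronal genes 5 fell and 1 rose. In the same contrast fibroblast genes rose (5 of 6, median 2.39). Microglia and macrophage genes (7 of 8, median 0.75) and astrocyte genes (5 of 8, median 0.20) rose as well. Of all genes, 14.2% were called higher in this contrast and 11.6% lower. Choroid plexus and ependymal genes were called higher in 4 of 6, olfactory bulb genes in 0 of 8, endothelial genes in 1 of 6 and red blood cell genes in 0 of 5 tested. The same 8 olfactory bulb genes had 5 called higher in normotensive mice (median log2 fold change 1.19) and 0 called in hypertensive mice (median −0.79, with 1 at an unadjusted *P* under 0.05). In the averaged contrast 0 of the olfactory bulb and 0 of the red blood cell genes had an unadjusted *P* under 0.05. In normotensive mice 8 of 8 cortical genes fell, and of 8 neuronal genes 5 fell and 1 rose. There 6 of 6 fibroblast, 7 of 8 microglia and macrophage and 6 of 8 astrocyte genes rose. Of all genes, 14.4% were higher in that comparison and 11.5% lower. In hypertensive mice 0 of these cortical, neuronal, fibroblast, microglia and macrophage, and astrocyte genes were called. Of all genes, 0.544% were higher in that comparison and 0.102% lower. An unadjusted *P* under 0.05 was reached there by 5 of 6 fibroblast and 7 of 8 microglia and macrophage genes. The astrocyte, cortical and neuronal lists each had 3 of 8 such genes, and all genes had 2842 of 16741. None of the listed genes was at 0 in every library.

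With a striatal score added to the fit as a covariate, the members' stroke differences were smaller. The averaged contrast still called 6 of 9, against 13.4% of all genes called higher, with log2 fold changes of 0.34 for *Cnp*, 0.31 for *Cldn11*, 0.28 for *Mag*, 0.27 for *Mbp*, 0.23 for *Mog* and 0.21 for *Mobp*. In normotensive mice 2 of 9 passed, *Cldn11* (0.31) and *Cnp* (0.25), against 15.2% of all genes called higher. In hypertensive mice 0 of 9 passed in edgeR and 6 of 9 had an unadjusted *P* under 0.05, against 0.0119% and 10.4% of all genes called higher, with estimates of −0.01 to 0.45 and a median of 0.39, and this fit called 3 genes in all. An olfactory bulb score as covariate left 6 of 9 called in normotensive mice, 5 of 9 in hypertensive mice and 6 of 9 in the averaged contrast, against 11.7%, 3.34% and 15.2% of all genes called higher in the same fits. Stroke and the share of striatal tissue in a block cannot be told apart in these groups beyond this fit.

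**Figure D4:**
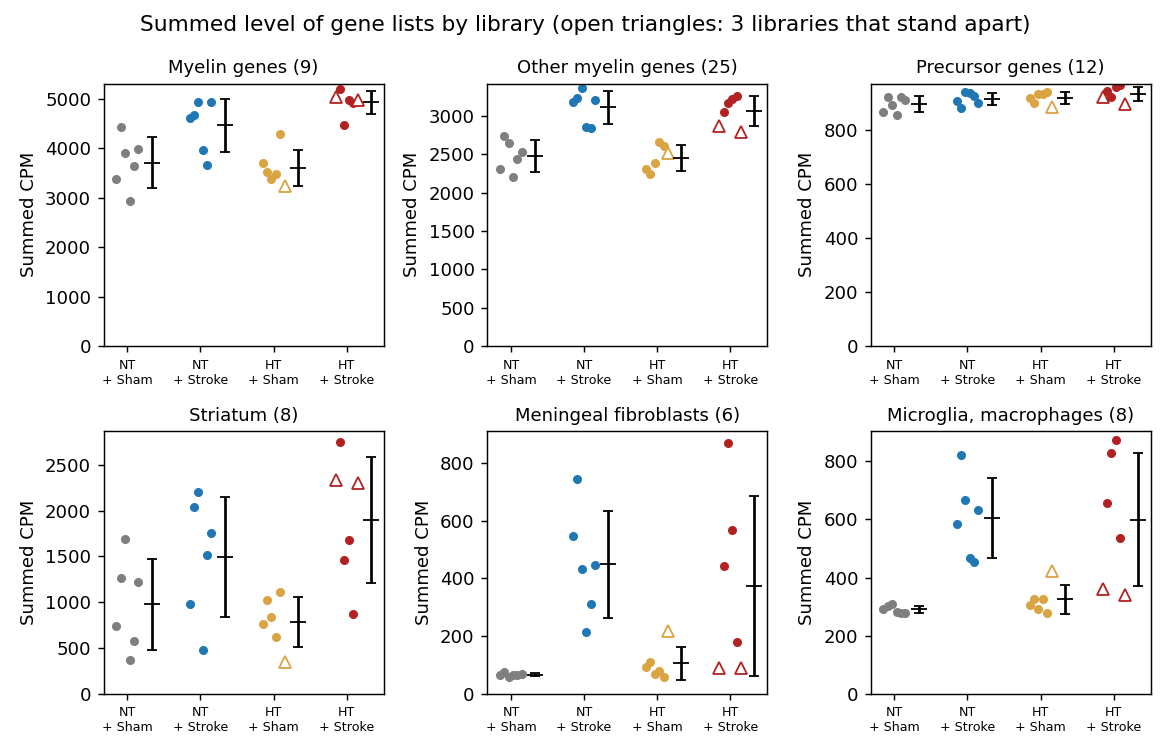
Summed CPM of the 9 myelin genes and of 5 gene lists (vertical axes, each from 0) in each of the 24 libraries, with the group mean and SD. Open triangles are mouse 6 of HT + Sham and mice 1 and 6 of HT + Stroke, whose fibroblast and microglia levels stand apart while their myelin gene levels lie with their own groups, at 3245, 5032 and 4976 CPM. The striatal levels of these 3 libraries were 350, 2335 and 2296 CPM.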

How the data were processed

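RNA was sequenced from 24 libraries of mouse brain. The authors deposited read counts per gene without normalization, made with featureCounts 1.5.0-p3 per the labels, in 4 tables beside FPKM, which the authors computed from counts, gene length and library size. The aligner is not given in the sources used here, and the genes' positions are those of GRCm38. Columns of normalized counts (48), group means (8) and the authors' own fold changes and p-values, made with DESeq2, were not used. Tables were joined by gene identifier, and 0 of 48 library columns shared between tables differed. The tables number the libraries within a group. Nothing says that libraries of a group came from separate animals beyond these numbers, so p-values measure the spread between these libraries.

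Low counts were removed with filterByExpr (at least 10 counts in enough libraries and 15 in total), and counts were scaled by TMM and tested with the two-sided quasi-likelihood test of edgeR 4.0.16 in R 4.3.3, adjusted by Benjamini and Hochberg's method across every gene tested. Pairs of groups were fitted alone, and the interaction and averages in one fit of 4 groups. SE is the log2 fold change divided by the root of the F statistic, and intervals are 2 SE. Depth gave 190 or more counts of every member in every library. Correlations used 100000 permutations within groups. Members and lists were chosen with earlier results of these data known. All 9 members are named, with up to 4 called genes of smallest *P* from a list (or up to 2 where none was called), and the 10 genes most like the members' mean with a mean log2(CPM + 1) above 1. Some genes that this rule names are not reported here. Alternatives were DESeq2 1.42.0, library-size and upper-quartile scaling, other filters, limma 3.58.1 on log2(FPKM + 1) and log2(FPKM + 0.1), one fit of 4 groups, a library-number block, striatal and olfactory bulb covariates, an unadjusted *P*, and each library left out. Leaving out 3 libraries together was added after the data were seen. The tests were checked on simulated data with known changes in libraries like those of the normotensive comparison. There edgeR missed more of the small changes, near the members' size, than it found, and the false share of the calls of edgeR, DESeq2 and limma lay above the nominal level, so single calls near the threshold are uncertain.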

Additional observations from a re-analysis of the deposited data

Results flagged for a closer look

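Within each group of 6 mice, the gap of the highest or lowest FPKM to its neighbour was compared with the group's range for each myelin gene, and 3 values exceeded Dixon's 95% critical value for 6 samples. Mouse 5 of HT + Sham had the highest *Mobp* of its group, 112 FPKM (gap 0.661 of the range), and the highest *Cnp*, 112 FPKM (gap 0.641). Mouse 1 of NT + Sham had the lowest *Ermn* of its group, 6.95 FPKM (gap 0.661). Chance alone is expected to give such a gap in about 5% of groups, and 36 gene and group pairs were examined. No difference between normotensive and hypertensive mice in the effect of stroke passed its test for any of the 9 genes.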

How the results depend on the processing

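Over 46 fold changes of the 9 genes and the alternatives tried, 1246 of 1326 refitted values kept their direction and their side of the threshold, 41 lost the call, 21 gained it and 18 changed sign. The sign of *Ermn* in NT + Stroke vs NT + Sham turned with all genes of at least 1 count (−0.00499) and a striatal covariate (−0.0699), and that of *Mal* in HT + Stroke vs HT + Sham with a striatal covariate (−0.00779). For the interaction, *Cldn11* turned with library size only (−0.0247), a striatal covariate (−0.0665) and an olfactory bulb covariate (−0.13), as did *Mal* (−0.14) and *Mobp* (−0.0386) with the last. With each library left out in turn, *Cldn11* ran from −0.0257 to 0.105 for the interaction, *Cnp* from −0.0593 to 0.0511 in HT + Sham vs NT + Sham, and in NT + Stroke vs NT + Sham *Ermn* from −0.0431 to 0.0907 and *Opalin* from −0.00803 to 0.247.

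Members called in NT + Stroke vs NT + Sham numbered 1 with all genes of at least 1 count, 2 with a striatal covariate and 2 to 5 with a library left out. In HT + Stroke vs HT + Sham they numbered 0 with a striatal covariate, 8 with an unadjusted *P*, and 1 to 6 with a library left out. An unadjusted *P* gave 4 in HT + Stroke vs NT + Stroke, and 1 each for the interaction and the averaged angiotensin II contrast. All genes called in HT + Stroke vs HT + Sham, 108 as reported, numbered 907 with DESeq2, 1125 in the fit of 4 groups, 179 with genes of at least 1 count, 67 with library size only, 68 with limma on log2(FPKM + 1), 645 and 3 with olfactory bulb and striatal covariates, 46 with the replicate block, 2842 unadjusted, 1437 without the 3 libraries that stood apart, and 9 to 533 with a library left out. An unadjusted *P* gave 1332 genes in HT + Sham vs NT + Sham, 1230 in HT + Stroke vs NT + Stroke, 776 for averaged angiotensin II and 1836 for the interaction, where DESeq2 called 22. The causes were not tested. Of 24 same-numbered pairs of libraries, 11 had a correlation of deviations over 0.1 (range −0.55 to 0.41). Pairs with different numbers were not compared, so whether library numbers pair the mice was not tested. With library numbers as a replicate block, 6, 5 and 6 members were called in the stroke comparisons (normotensive, hypertensive, averaged). The same fits called 4636 of 16835, 46 of 16741 and 4487 of 17608 genes in either direction. The median r between members was 0.62 on log2(FPKM + 1) and 0.64 with library size only.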
